A study of Mus musculus with 12 samples.

Results

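Actin filaments pulled on by non-muscle myosin II form the stress fibres of a fibroblast, and the genes that build this machinery are the subject here. The set holds 41 listed genes for actins, their binding proteins, myosin II subunits and the transcription factor SRF with its cofactors, picked by function and looked up by RefSeq transcript on the array. Of these 41, 40 had a probe, and all 40 were among the 12435 genes tested, out of 17016 genes on the array with a RefSeq-named probe. Myl9, a regulatory light chain of myosin II, had no probe named by its RefSeq transcript and was not analysed here.

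The study measured 12 cultures of mouse embryonic fibroblasts on one-colour arrays, 1 array per culture, in 4 groups of 3. The KO line (ATCC CRL-2644) lacks focal adhesion kinase, FAK, the tyrosine kinase of integrin adhesions encoded by Ptk2, and the rescue line is 1 clone, DA2, of such cells in which FAK was put back. Each line was plated on 10 cm dishes in 10 ml of DMEM with Glutamax and 10% serum at 8200000 cells (dense) or 410000 cells (sparse), and collected after 24 ± 1 h. Rescue medium also held 135 µg/ml hygromycin B and non-essential amino acids, so that line and medium changed together. The groups were dense KO, dense rescue, sparse KO and sparse rescue cells, each with 1 culture on each of 3 experimental days, numbered 1 to 3 here. Each array read a whole culture, so fewer cells of a type and less RNA per cell cannot be told apart.

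As background, SRF is held in check through actin itself. Its cofactors MRTF-A and MRTF-B, encoded by Mrtfa and Mrtfb, bind actin monomers and stay in the cytoplasm, and they enter the nucleus when monomers are used up in filaments. There they join SRF on a short DNA element, the CArG box, in genes for actins, tropomyosins, calponins and SRF itself. In smooth muscle the same element serves the contractile genes, and fibroblasts that spread and pull on their matrix are known to raise many of them.

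CArG boxes close to the gene start were looked for in the RefSeq promoter windows of build GRCm38.p6, which run from 250 bases before to 50 bases after each annotated start. Such windows were at hand for 35 of the 41 listed genes, 48 windows in all. Since the set was drawn up around SRF and genes it acts on, a higher share of boxes than among all windows was likely in advance. The box was found in 10 of the 48 windows (20.8%), from 9 genes, against 1.63% of all 32851 windows in the RefSeq table. These stretches are shown because they carry the element through which the cofactors act, with 15 bases on each side and the boxes in capitals, 5′ to 3′ on the strand of the gene.
Srf, chr17:46556200-46556259, minus strand: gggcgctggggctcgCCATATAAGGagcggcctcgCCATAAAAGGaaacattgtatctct
Acta1, chr8:123894824-123894863, minus strand: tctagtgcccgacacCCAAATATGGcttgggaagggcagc
Actc1, chr2:114052898-114052937, minus strand: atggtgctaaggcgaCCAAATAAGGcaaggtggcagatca
Actg1, chr11:120348561-120348600, minus strand: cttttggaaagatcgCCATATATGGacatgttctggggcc
Cnn2, chr10:79988529-79988568, plus strand: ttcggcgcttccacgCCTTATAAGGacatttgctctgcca
Myl6, chr10:128493035-128493074, minus strand: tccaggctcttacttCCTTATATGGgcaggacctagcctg
Fhl1, chrX:56779566-56779605, plus strand: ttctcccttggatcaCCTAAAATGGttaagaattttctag
Fhl2, first window, chr1:43163968-43164007, minus strand: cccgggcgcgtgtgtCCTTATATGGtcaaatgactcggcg
Fhl2, second window, chr1:43196833-43196872, minus strand: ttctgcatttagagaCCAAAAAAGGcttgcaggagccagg
Srf alone held a pair of boxes, starting 82 and 62 bases before its start. The boxes of the other windows began between 161 bases (Myl9) and 31 bases (Fhl2) before the start. The letters CATTCC, the core of the motif of the TEAD factors that also act on contractile genes, stood on either strand in 31.2% of the 48 windows and in 14.7% of all windows. A match describes these letters only, and the absence of one says nothing of elements outside the window.

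**Figure D1:**
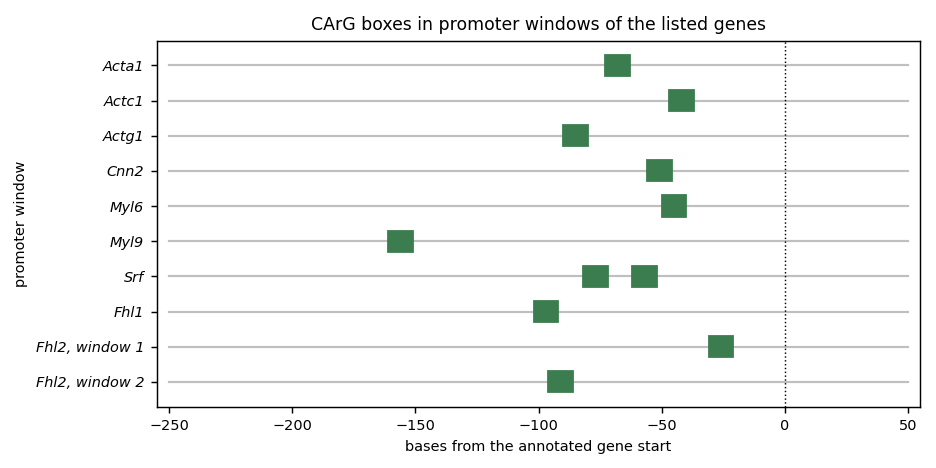
Position of each CArG box (green block, 10 bases) in the 10 promoter windows of the listed genes that hold one, in bases from the annotated start (dotted line). All 11 boxes begin between 161 and 31 bases before the start, and Srf has a pair.

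Signals are given as log2 of the scanner's processed intensity minus the 75th percentile of the same array, which ranged from 294 to 1594 intensity units. A value of 0 thus marks the 75th percentile, and values compare cultures for 1 probe, not different genes. Between 23150 and 26183 of 41174 probes per array were well above background, and replicate arrays of a group correlated at 0.982 to 0.992 across genes. The brighter of the Ptk2 probes did not separate the lines (difference -0.07 in dense and -0.11 in sparse cells), while the other was lower in KO cells, with differences of -0.93 in dense cells (limma across probes, adjusted p = 0.0210) and -2.08 in sparse cells (adjusted p = 0.000167). Where these probes lie relative to the deleted part of Ptk2 was not known here, so they do not settle the labels. Of the 12 columns of the deposited value table, 8 correlated best with the scanner array of the same sample (r 0.893 to 0.947 after centring each probe). The other 4, all of day 3, correlated best with the array of the other line at the same density (r 0.909 to 0.938) and at most at -0.532 with their own. The results below rest on the scanner files, in which arrays of a group stood together on all days.

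The lines also differed in what kind of cell their markers describe. Fibroblast markers were well above background on all 3 arrays for 10 of 12 genes in dense KO cells, 11 of 12 in dense rescue cells and 10 of 12 in either line when sparse, with Thy1 at background on all but 1 of the 12 arrays and Lum at background except in dense rescue cells. Their summed signal was 411 to 437 times the 75th percentile in dense KO cells against 1108 to 1981 in dense rescue cells, and 398 to 434 in sparse KO cells against 1255 to 1446 in sparse rescue cells. A few bright genes carry these sums. Of 11 fibroblast markers tested, 0 were higher and 9 lower in dense KO cells, against 31.9% and 29.7% of all genes. In sparse KO cells 3 were higher (Dcn, Pdgfra and Fbn1) and 7 lower, against 23.2% and 25.6% of all genes. Lum could be tested only through dense rescue cells, so the direction of its differences from that group was set by the filter. All 8 mesothelial markers were detected in KO cells at both densities, against 4 of 8 in rescue cells, where Wt1, Upk3b, Lrrn4 and Bnc1 were at background. Their sums were 153 to 167 (dense KO), 25.1 to 37.3 (dense rescue), 176 to 207 (sparse KO) and 27.9 to 46.0 (sparse rescue). Against this pattern Msln averaged 3.20 in dense KO against 4.86 in dense rescue cells. It averaged 3.70 in sparse KO against 5.01 in sparse rescue cells, and Krt8 missed the test in sparse cells (-0.07). Skeletal muscle markers were higher in KO cells for 4 of 4 tested genes when dense and 3 of 4 when sparse, against 31.9% and 23.2% of all genes. Myod1, Tnnt1 and Tnnt3 were well above background on all 3 arrays only in KO groups. That alone let them be tested, so their direction was largely set by the filter. Mylpf was detected on all arrays, and Myog, Ckm and Actn2 were too dim to be tested. Of 5 cardiac markers tested 2 were higher in dense KO cells, and 1 higher and 1 lower in sparse KO cells. Of these Myl7 averaged 2.57 in dense KO and 1.91 in sparse KO cells and was at background on all rescue arrays. Of the smooth muscle markers 7 of the 9 measured were detected on all 3 arrays of every group, several of them listed genes, while Myocd, the smooth muscle cofactor of SRF, was above background on 1 array of 12. With density, 5 fibroblast markers rose and 0 fell in rescue cells (median 0.58), and 2 rose in KO cells, where 19% and 5.44% of all genes rose. Those of rescue cells included Dcn (5.79 in dense against 1.24 in sparse cells), Pdgfra (1.70 against -2.01) and Lum. The differences between lines and between densities below stand beside these marker differences, whose part in them was not tested.

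KO and rescue cells differed in individual contractile genes in both directions rather than across the set. In dense cells 12 of the 40 genes were higher and 13 lower in KO than in rescue cells (limma, adjusted p under 0.05), and 15 did not pass, where 61.6% of all genes were called (31.9% higher and 29.7% lower). In sparse cells 8 were higher, 15 lower and 17 did not pass, against 48.8% of all genes (23.2% higher and 25.6% lower). The median difference of the 40 genes was 0.05 in dense and -0.34 in sparse cells, beside 0.08 and 0.02 for all genes. At both densities 7 genes were higher and 10 lower in KO cells. How many of all genes were called alike at both densities was not counted, so these numbers say nothing particular of the set. The largest gaps belonged to Cnn1, Fhl1, Tagln and, in dense cells, Cobl on the higher side, and to Lmod1, Csrp2, Capg, Fhl2 and Cnn2 on the lower side. On the day 2 slide, the one slide that carried both lines, all 25 dense and all 23 sparse calls had the same sign. The arrays of that slide also went into the calls, so this agreement was likely in advance and is no independent support. On the other slides line and slide cannot be told apart.

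Of the contractile genes called between densities, most were lower when dense. More were called in rescue than in KO cells, as was the case for all genes. There 23 of the 40 genes fell, 3 rose (Mylk, Csrp2 and Capg) and 14 did not pass, against 40% of all genes called (19% higher and 21% lower). In KO cells 7 fell (Actb, Actg1, Cnn1, Cnn2, Myh9, Fhl2 and Lmod1), none rose and 33 did not pass, against 10.9% of all genes (5.44% higher and 5.47% lower). The median difference, dense minus sparse, was -0.52 in KO cells and -0.75 in rescue cells, beside -0.00290 and -0.08 for all genes. On all 3 days 30 of 40 genes read lower when dense in KO cells, and 28 of 40 in rescue cells. On all 3 days 3 and 4 genes read higher. The same count over all genes was not made, so these numbers say nothing particular of the set. Actg1, Cnn1 and Cnn2 passed in both lines.

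These directions between densities are relative to the 75th percentile and depend on it. Scaling on the spike-in RNA moved the median of all genes by 3.08 in KO and by 0.70 in rescue cells (log2, dense minus sparse), and by 0.81 for dense and -1.58 for sparse cells between the lines. Under it 40 genes were called higher and 0 lower in dense KO cells, where 12377 of all 12435 genes were called higher. In dense rescue cells 3 were higher and 2 lower, beside 2999 and 338 of all genes. Between the lines 16 were higher and 6 lower in dense cells, beside 5416 and 1509 of all genes. For sparse cells the counts were 0 higher and 31 lower, beside 571 and 9076 of all genes. Spike-in probes averaged between 10.3 and 12.5 (log2 intensity) over the arrays and were brightest on the 3 sparse KO arrays, whose 75th percentiles lay between 294 and 688 intensity units. Scaling on the array median instead moved the median of all genes by 0.25 in KO cells. With it 2 genes were called higher and 4 lower in dense KO cells, beside 1227 and 290 of all genes. Between sparse KO and sparse rescue cells 4 were higher and 18 lower, beside 1784 and 4048 of all genes. Which reference stands for a cell's RNA was not tested.

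**Figure D2:**
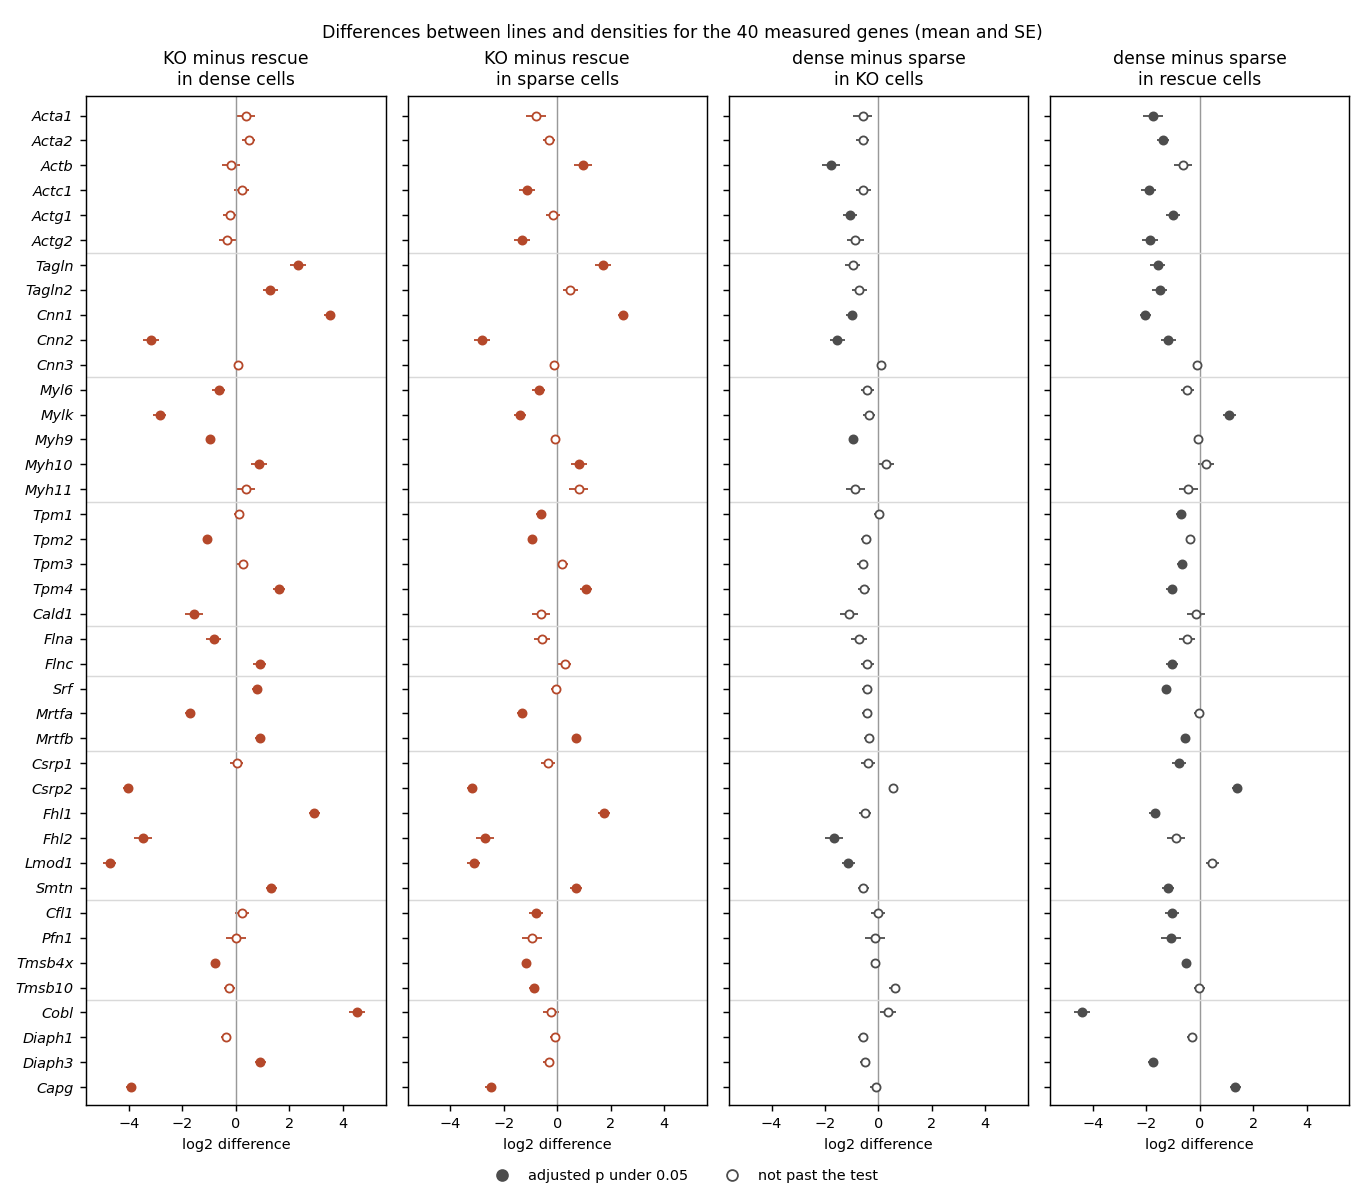
Log2 differences (points) with their SE (bars) for the 40 measured genes, grouped by role, between KO and rescue cells in dense and sparse culture (left panels) and between dense and sparse plating in KO and rescue cells (right panels); filled points passed the test. Differences between lines spread to both sides, from -4.72 (Lmod1) to 4.53 (Cobl, whose dense rescue signal was not above background, so that only the bound of at least 16.0-fold holds) in dense cells, and most of those between densities lie below 0 relative to the 75th percentile, a side that spike-in scaling turns for 34 of the 40 genes in KO and 14 in rescue cells.

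None of the 6 actins passed the test between dense KO and dense rescue cells, and most fell with dense plating in rescue cells. Mean differences between the dense lines ran from -0.32 to 0.48 (adjusted p 0.0989 to 0.637), where 61.6% of all genes were called. Without the day 1 dense KO array 1 of the actins would pass, Acta2 at 0.70. Single days differed more, with Actb at -0.18, -1.26 and 0.86 on days 1 to 3, so closeness of the lines is not shown. In rescue cells 5 of 6 were lower when dense, against 21% of all genes, and under spike-in scaling none of the 6 kept a call. Acta2, the smooth muscle alpha-actin found in myofibroblast stress fibres, read 6.10, 6.03 and 5.62 in dense rescue cells against 7.31, 7.41 and 7.16 in sparse rescue cells (difference -1.37 ± 0.24 SE, adjusted p = 0.000783). In KO cells it read 5.94, 6.50 and 6.75 when dense and 6.72, 7.30 and 6.94 when sparse, and these ranges overlapped (-0.59 ± 0.24, adjusted p = 0.134). Its 2 other probes were lower in dense KO cells by the test (-1.24, adjusted p = 0.00792, and -1.06, adjusted p = 0.0187, in a fit across all kept probes, as for every further probe below), so the call of Acta2 in KO cells differed between probes.

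Cardiac alpha-actin, Actc1, carries a box 47 bases before its start and had the largest fall among the 6 actins in dense rescue cells. It read 1.79, 2.07 and 2.47 in dense KO and 2.16, 1.501 and 2.00 in dense rescue cells, against 2.46, 2.63 and 2.92 in sparse KO and 4.37, 3.35 and 3.68 in sparse rescue cells. The sparse rescue cultures thus stood above all others. The other 3 groups read between 1.501 and 2.92, with every sparse KO culture above every dense rescue culture. The fall was -1.91 ± 0.29 in rescue cells (adjusted p = 0.000310), with -0.56 ± 0.29 in KO cells (adjusted p = 0.233), and sparse KO cells were lower than sparse rescue cells by 2.19-fold (-1.13, adjusted p = 0.00620). Skeletal alpha-actin Acta1 (-1.75) and smooth muscle gamma-actin Actg2 (-1.86) also fell in dense rescue cells, and Actg2 was also lower in sparse KO than in sparse rescue cells (-1.32, adjusted p = 0.00443). The difference of Actg2 between dense and sparse KO cells, -0.86, missed the test and passed with the day as a block (adjusted p = 0.0214). Acta1 missed the test between sparse KO and sparse rescue cells (-0.79, adjusted p = 0.0909) and passed with the day as a block (adjusted p = 0.0136) or without sparse rescue array 2 (-1.08). The muscle actins are near-identical proteins, and how far each probe reads its relatives was not known here.

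The cytoplasmic actins, the main actins of fibroblasts, had different calls. Actg1 fell by similar amounts in KO cells (-1.06 ± 0.25, adjusted p = 0.0221) and in rescue cells (-1.002 ± 0.25, adjusted p = 0.00813), with an interaction of -0.06 ± 0.36 (adjusted p = 0.925). Its KO call ended without any single one of the 3 sparse KO arrays (-1.25 to -0.75 over all arrays left out in turn). Actb read 0.09, -0.08 and 0.67 in dense KO cells against 2.14, 1.56 and 2.31 in sparse KO cells, a fall of 3.42-fold (-1.78 ± 0.33, adjusted p = 0.00740). In rescue cells it read 0.27, 1.18 and -0.19 when dense against 1.13, 0.97 and 1.02 when sparse and the ranges overlapped. Without dense rescue array 2 that difference passed (-0.999). Actb was also higher in sparse KO than in sparse rescue cells (0.96 ± 0.33, adjusted p = 0.0299), a call that ended without sparse KO array 1 or 3 or without any one sparse rescue array (0.81 to 1.18).

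Calponins and transgelins are small proteins that bind along actin filaments, and here they split by gene between the lines. Cnn1, the smooth muscle calponin, read 3.08, 3.63 and 3.79 in dense KO cells against 0.13, -0.0048 and -0.14 in dense rescue cells. When sparse it read 4.42, 4.56 and 4.499 in KO cells against 2.20, 1.80 and 2.11 in rescue cells. Every KO culture therefore lay above every rescue culture, by 11.3-fold in dense cells (3.50 ± 0.20, adjusted p = 2.9e-08) and 5.5-fold in sparse cells (2.46 ± 0.20, adjusted p = 8.58e-07). It fell with dense plating in both lines, with differences of -0.996 ± 0.20 in KO cells (adjusted p = 0.0112) and -2.04 ± 0.20 in rescue cells (adjusted p = 2.06e-05).

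Cnn2, the calponin of non-muscle cells, went the other way between the lines. Its readings were 0.62, 1.33 and 1.37 in dense KO against 4.88, 4.19 and 3.78 in dense rescue cells, and 2.59, 2.66 and 2.68 in sparse KO against 5.67, 5.53 and 5.18 in sparse rescue cells. It was 9.04-fold lower in dense and 7.05-fold lower in sparse KO cells (adjusted p = 1.39e-06 and 5.68e-06), and fell with dense plating in KO cells (-1.54) and rescue cells (-1.18). Cnn3 passed in no comparison, with line and density differences between -0.10 and 0.10 (SE 0.15), an interaction of 0.18 and every reading between 5.18 and 5.50. Tagln, or SM22-alpha, a common marker of smooth muscle and of SRF activity, read 5.40, 6.24 and 6.73 in dense KO against 3.84, 3.62 and 3.92 in dense rescue cells (2.33 ± 0.29, adjusted p = 2.05e-05), and was 3.28-fold higher in sparse KO than in sparse rescue cells. Its relative Tagln2 was higher in KO cells when dense (1.28, adjusted p = 0.00158) and missed the test when sparse (0.49, adjusted p = 0.161). Tagln and Tagln2 both fell in dense rescue cells (-1.58 and -1.50). In dense KO cells Tagln stood at -0.97 (adjusted p = 0.0513), a value that passed without dense KO array 3 (-1.27) or sparse rescue array 3 (-0.97).

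**Figure D3:**
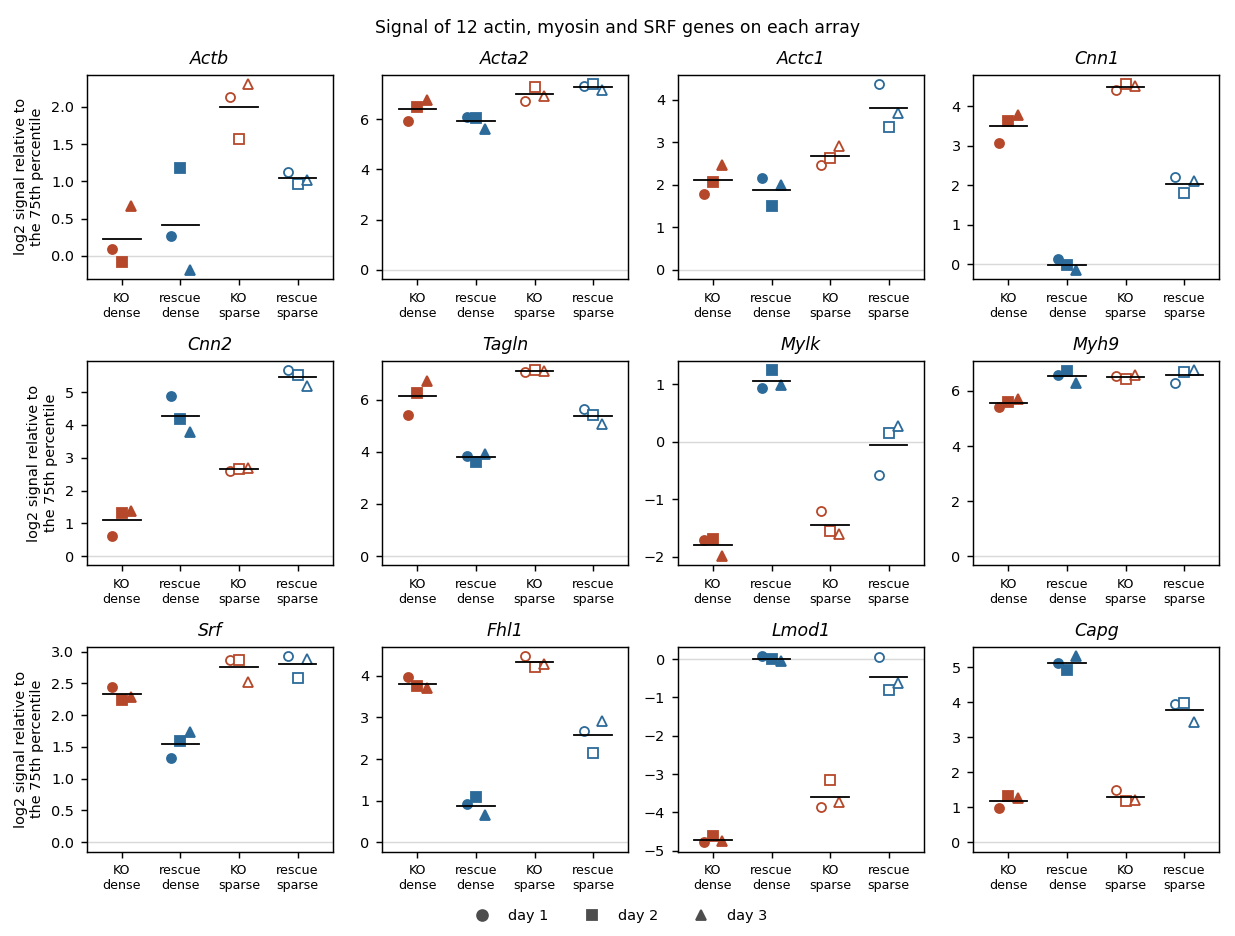
Log2 signal relative to the array's 75th percentile on each of the 12 arrays for 12 of the listed genes, with the group mean as a line; marker shape gives the day, filled markers are dense and open markers sparse cultures, KO in red and rescue in blue. Cnn1, Tagln and Fhl1 stand higher, and Cnn2, Mylk, Lmod1 and Capg lower, in KO cultures, and Actc1 stands highest in sparse rescue cultures.

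Myosin II moves actin filaments, and its light chain kinase Mylk switches it on by phosphorylating the regulatory light chain. Mylk read -1.71, -1.69 and -1.99 in dense KO cells against 0.94, 1.24 and 0.99 in dense rescue cells, a gap of 7.22-fold (-2.85 ± 0.23, adjusted p = 6.03e-07). In sparse cells it read -1.19, -1.55 and -1.60 in KO against -0.58, 0.15 and 0.28 in rescue cultures (-1.40 ± 0.23, adjusted p = 0.000354). It was one of 3 listed genes that rose in dense rescue cells (1.11 ± 0.23, adjusted p = 0.00274), and its KO readings differed by -0.35 (adjusted p = 0.368). On its second probe the rise in rescue cells was 2.37, and the gap between the sparse lines did not pass (-0.53, adjusted p = 0.183).

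Myh9, the heavy chain of non-muscle myosin IIA, had a density response that differed between the lines by the interaction test (-0.89 ± 0.25, adjusted p = 0.0289). It read 5.43, 5.59 and 5.72 in dense KO cells and 6.58, 6.73 and 6.30 in dense rescue cells, against 6.53, 6.45 and 6.58 in sparse KO and 6.30, 6.68 and 6.76 in sparse rescue cells. Dense KO cultures were thus the low group, below dense rescue cells (-0.96 ± 0.18, adjusted p = 0.000617) and below sparse KO cells (-0.94 ± 0.18, adjusted p = 0.00849), while dense and sparse rescue cells were within -0.05 of each other (adjusted p = 0.853). Myh10, the heavy chain of myosin IIB, was higher in KO cells by 0.86 when dense (adjusted p = 0.0267) and 0.80 when sparse (adjusted p = 0.0454). The Myh10 calls were weak. The dense one ended without dense KO array 1 or 2 or dense rescue array 2 or 3 (0.68 to 1.13). The sparse one ended without any sparse KO array, sparse rescue array 1 or 3, dense KO array 2, or dense rescue array 2 or 3 (0.58 to 1.05), and its second probe was uncalled between sparse lines (0.27).

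The essential light chain Myl6 was lower in KO cells by similar amounts when dense (-0.65, adjusted p = 0.0380) and when sparse (-0.69, adjusted p = 0.0345). Both calls depended on single arrays, the dense one being lost without any one dense KO array or dense rescue array 2 (-0.83 to -0.39) and the sparse one without sparse KO array 1 or 3 or sparse rescue array 2 or 3 (-0.86 to -0.59). Its difference between dense and sparse rescue cells, -0.46, passed without dense rescue array 2 (-0.72). Its second probe passed between the lines at both densities (-0.86 when dense and -0.999 when sparse). Myh11, the smooth muscle heavy chain, read between -5.61 and -3.69 and passed in none of the 5 comparisons. Without dense rescue array 2 it passed between sparse lines (0.80).

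Tropomyosins lie along actin filaments and decide which partners may bind them, and the 4 genes moved apart between the lines. Tpm4 read 6.46, 7.15 and 7.21 in dense KO cells against 5.49, 5.26 and 5.25 in dense rescue cells (1.61 ± 0.22, adjusted p = 4.62e-05) and was also higher in sparse KO cells (1.09, adjusted p = 0.00136). Tpm2 was lower in KO cells at both densities, at 3.65, 3.74 and 3.79 against 4.69, 4.99 and 4.74 when dense (-1.08 ± 0.16, adjusted p = 8.11e-05) and by a similar amount when sparse (-0.95, adjusted p = 0.000328). Tpm1 was lower in sparse KO cells (-0.61, adjusted p = 0.0116), with 0.12 in dense cells (adjusted p = 0.573). Its interaction, 0.73, missed the threshold (adjusted p = 0.0540) and passed without dense KO array 1 (0.85). Tpm3 passed between the lines at neither density with the probe used (0.26 and 0.18), while its second probe was higher in dense KO cells (0.85, adjusted p = 0.00643).

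With dense plating 3 of the 4 tropomyosins fell in rescue cells, against 21% of all genes. Tpm4 fell by 1.05, Tpm1 by 0.71 and Tpm3 by 0.66 on the log2 scale. None of the 4 passed in KO cells (adjusted p 0.0708 to 0.962), with Tpm2 passing there and in rescue cells without sparse rescue array 3 (-0.48 and -0.45). The Tpm3 call was lost without sparse rescue array 1 or 2 or dense rescue array 1 or 3 (-0.84 to -0.52), and under spike-in scaling its sign turned (0.032). Cald1, caldesmon, which damps myosin on actin, was lower in dense KO cells, at 2.11, 1.93 and 2.54 against 3.54, 3.70 and 4.04 in dense rescue cells (-1.57 ± 0.34, adjusted p = 0.00158). Its fall in dense KO cells was -1.08 ± 0.34 (adjusted p = 0.0610), which passed with the day as a block (adjusted p = 0.00793), without sparse rescue array 3 (-1.08) and on the second probe (-1.35, adjusted p = 0.0117). Between sparse lines Cald1 stood at -0.61 (adjusted p = 0.155) and passed with the day as a block (adjusted p = 0.0195).

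Filamins cross-link filaments into networks. Flna, the common filamin, was lower in dense KO cells (-0.84 ± 0.30, adjusted p = 0.0282) although the groups overlapped, with 5.65, 6.37 and 6.17 against 7.23, 7.24 and 6.25 in dense rescue cells. That call was lost without dense KO array 1 or dense rescue array 1 or 2 (-1.17 to -0.63), and both of its other probes passed it (-0.75 and -0.90). They also passed in sparse cells (-0.60 and -1.59) and between dense and sparse rescue cells (-1.23 and -0.97), where the probe used gave -0.57 and -0.47. Flnc, the muscle filamin, was higher in dense KO cells (0.89 ± 0.24, adjusted p = 0.00666) and fell in dense rescue cells (-1.04, adjusted p = 0.00492). In KO cells its density difference was -0.42 on the probe used and -1.91 on another (adjusted p = 0.00079), so that the probes of Flnc gave different calls there.

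Srf differed between the densities more in rescue than in KO cells. It read 2.45, 2.24 and 2.28 in dense KO cells and 1.32, 1.60 and 1.73 in dense rescue cells, against 2.86, 2.87 and 2.53 in sparse KO and 2.93, 2.59 and 2.88 in sparse rescue cells. The lines thus overlapped when sparse (-0.05, adjusted p = 0.852) and stood apart when dense, KO being 1.71-fold higher (0.77 ± 0.18, adjusted p = 0.00258). The fall with dense plating was -1.25 ± 0.18 in rescue cells (adjusted p = 0.000231) and -0.43 ± 0.18 in KO cells (adjusted p = 0.147). The difference of these responses, 0.82 ± 0.25, passed narrowly (adjusted p = 0.0398) and was lost without any one array other than sparse rescue array 2 and dense rescue array 3 (0.70 to 0.92).

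The cofactors of SRF differed between the lines in opposite directions. Mrtfa read 2.997, 2.76 and 2.79 in dense KO against 4.46, 4.84 and 4.41 in dense rescue cells and was lower in KO cells at both densities, by 3.3-fold when dense (-1.72 ± 0.19, adjusted p = 8.69e-06) and 2.49-fold when sparse (-1.32 ± 0.19, adjusted p = 0.000120). Its second probe gave the same direction (-1.52 and -1.96) but fell in dense rescue cells (-1.22, adjusted p = 0.00326), where the probe used gave -0.01. Mrtfb was higher in KO cells when dense (0.89, adjusted p = 0.000788) and when sparse (0.71, adjusted p = 0.00501). The dense gap of Mrtfb was -0.34 on its second probe (adjusted p = 0.297). Its fall in dense rescue cells (-0.54, adjusted p = 0.0262) was lost without sparse rescue array 1 or dense rescue array 1 or 3 (-0.68 to -0.46).

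LIM proteins and smooth muscle filament proteins held the widest gaps between the lines. Lmod1, leiomodin, which starts new filaments in smooth muscle, read -4.78, -4.61 and -4.73 in dense KO against 0.07, 0.01 and -0.04 in dense rescue cells, and -3.86, -3.16 and -3.74 in sparse KO against 0.04, -0.80 and -0.62 in sparse rescue cells. It was 26.4-fold lower in dense KO cells (-4.72 ± 0.24, adjusted p = 8.74e-09) and 8.73-fold lower in sparse KO cells, and fell with dense plating in KO cells (-1.12 ± 0.24, adjusted p = 0.0138) while reading 0.48 higher in dense rescue cells (adjusted p = 0.136, passing without sparse rescue array 1 at 0.73). Csrp2, a LIM-only partner of SRF in smooth muscle, read 1.29, 0.89 and 0.92 in dense KO against 4.92, 5.30 and 4.96 in dense rescue cells, 16.3-fold lower (-4.02 ± 0.18, adjusted p = 3.44e-09). In sparse cells Csrp2 was 9.16-fold lower in KO cells (-3.20), and it rose with dense plating in rescue cells (1.39 ± 0.18, adjusted p = 0.000132). Csrp1 differed between the lines at neither density, and its fall in dense rescue cells (-0.78, adjusted p = 0.0307) was lost without sparse rescue array 1 or 3 or any one dense rescue array (-1.04 to -0.55).

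The four-and-a-half-LIM genes Fhl1 and Fhl2, whose proteins sit on filaments and bind transcription factors, were set in opposite directions, although CArG boxes stand in the windows of both. Fhl1 read 3.97, 3.76 and 3.71 in dense KO against 0.91, 1.09 and 0.65 in dense rescue cells, and 4.47, 4.22 and 4.28 in sparse KO against 2.67, 2.14 and 2.91 in sparse rescue cells. It was 7.63-fold higher in dense and 3.36-fold higher in sparse KO cells (adjusted p = 2.12e-07 and 2.72e-05), and fell in dense rescue cells (-1.69 ± 0.21, adjusted p = 9.53e-05). Fhl2, a known target of MRTF and SRF, read 1.04, 0.72 and 0.76 in dense KO against 4.29, 4.89 and 3.80 in dense rescue cells, 11.2-fold lower (-3.49 ± 0.34, adjusted p = 2.68e-06), and was 6.51-fold lower in sparse KO cells.

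Fhl2 fell with dense plating in KO cells, where sparse cultures read 2.85, 2.22 and 2.47 (-1.68 ± 0.34, adjusted p = 0.0109). In rescue cells the difference was -0.89 (adjusted p = 0.0537), which passed with the day as a block (adjusted p = 0.0301) and without sparse rescue array 3 (-1.26) or dense rescue array 2 (-1.17). Smtn, smoothelin, a smooth muscle stress fibre protein, was higher in KO cells when dense (1.32, adjusted p = 0.000200) and when sparse (0.70, adjusted p = 0.0176), and fell in dense rescue cells (-1.19, adjusted p = 0.00110). Its sparse call was lost without sparse KO array 2 or sparse rescue array 2 (0.63 to 0.76).

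Of 4 genes of monomer binding and filament turnover, 3 were lower in sparse KO than in sparse rescue cells, against 25.6% of all genes. When dense, 1 of the 4 was lower in KO cells, against 29.7% of all genes. Tmsb4x, thymosin beta-4, which holds actin monomers in reserve, was lower in KO cells at 5.19, 5.47 and 5.55 against 6.07, 6.34 and 6.14 when dense (-0.78 ± 0.17, adjusted p = 0.00181) and at 5.58, 5.54 and 5.47 against 6.47, 6.66 and 6.91 when sparse (-1.15 ± 0.17, adjusted p = 0.000145). Tmsb10, its relative, was lower in sparse KO cells (-0.87, adjusted p = 0.00369) and not past the test in dense ones (-0.25). Cfl1, cofilin, which severs filaments, was lower in sparse KO cells (-0.79, adjusted p = 0.0229), a call lost without sparse KO array 3 or sparse rescue array 1 or 2 (-0.98 to -0.66). Pfn1, profilin, which feeds monomers to growing ends, missed the test there (-0.93, adjusted p = 0.0581) and passed with the day as a block (adjusted p = 0.0203) or without sparse KO array 2 or 3 or sparse rescue array 1 (-1.15 to -1.13).

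With dense plating Cfl1 (-1.03), Pfn1 (-1.06) and Tmsb4x (-0.50) fell in rescue cells, where 21% of all genes were lower. None of the 4 passed in KO cells (adjusted p 0.0792 to 0.981), where 10.9% of all genes were called. Cfl1 in KO cells read 5.86, 5.96 and 6.23 when dense and 6.22, 6.11 and 5.76 when sparse, an overlap. The Pfn1 call was lost without sparse rescue array 2 or 3, dense KO array 2 or any one dense rescue array (-1.28 to -0.83), and the Tmsb4x call without sparse KO array 2 or 3, sparse rescue array 2 or 3, dense KO array 2 or dense rescue array 1 or 3 (-0.60 to -0.38).

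Among nucleators and the capping protein, Cobl had the widest response to density. Cobl, cordon-bleu, which starts unbranched filaments, read -2.05, -1.99 and -2.77 in dense KO cells, against -6.20, -7.18 and -7.03 in dense rescue cells, where no array had it well above background. When sparse it read -2.30, -2.62 and -2.95 in KO cells and -2.37, -2.52 and -2.27 in rescue cells, an overlap. Dense rescue cells thus had only an upper bound, and Cobl was at least 16.0-fold higher in dense KO than in dense rescue cells (adjusted p = 7.7e-08) and at least 14.7-fold lower in dense than in sparse rescue cells (adjusted p = 1.89e-06). These bounds set the brighter group's mean against the dimmest signals that were well above background on the same arrays.

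Diaph3, a formin that elongates filaments, read 1.46, 1.34 and 1.49 in dense KO against 0.95, 0.38 and 0.21 in dense rescue cells (0.92 ± 0.20, adjusted p = 0.00155). It fell in dense rescue cells (-1.74 ± 0.20, adjusted p = 4.81e-05), with -0.50 in KO cells (adjusted p = 0.125), where its second probe gave -0.74. Diaph1, the related formin, passed in none of the comparisons (dense KO against sparse KO -0.57, adjusted p = 0.0703, passing without sparse rescue array 1 at -0.57). Capg, which caps the growing ends of filaments, read 0.98, 1.32 and 1.28 in dense KO against 5.12, 4.92 and 5.31 in dense rescue cells, and 1.49, 1.18 and 1.21 in sparse KO against 3.96, 3.96 and 3.42 in sparse rescue cells. It was 15.2-fold lower in dense and 5.61-fold lower in sparse KO cells (adjusted p = 9.46e-09 and 7.2e-07), and rose with dense plating in rescue cells (1.34 ± 0.20, adjusted p = 0.000312), with -0.10 in KO cells (adjusted p = 0.786).

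Whether a gene answered density differently in the lines was tested as an interaction, the dense minus sparse difference in KO cells minus the same in rescue cells. Of 40 genes 11 passed, 6 with a positive and 5 with a negative difference, against 20.7% of all genes (11.3% positive and 9.47% negative). The positive ones, Actc1, Cnn1, Srf, Fhl1, Cobl and Diaph3, all fell in dense rescue cells, and of these only Cnn1 fell by the test in KO cells. Among the negative ones, Mylk, Csrp2 and Capg rose in dense rescue cells without passing in KO cells, and Myh9 and Lmod1 fell in dense KO cells without passing in rescue cells. The median interaction of the 40 genes was 0.28, beside 0.04 for all genes. The count of 11 became 6 without sparse KO array 1, sparse rescue array 1 or dense KO array 2, and 7 without dense KO array 3 or dense rescue array 2. Spike-in scaling, which moved the median of all genes by 2.39, turned it into 36 positive and 0 negative calls. Most genes on the array were called under it, 99.6% of them positive. Scaling on the array median gave 7 positive and 2 negative calls, where 70.9% of all called genes were positive.

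No listed gene passed the interaction test under another background correction (normexp). With the processing used here, the calls of Mylk, Fhl1, Lmod1, Cobl, Diaph3 and Capg were kept without each of the 12 arrays in turn. That of Actc1 was lost without sparse KO array 1 or 2, sparse rescue array 1, dense KO array 2 or 3 or dense rescue array 2 (1.07 to 1.58), and that of Cnn1 without sparse KO array 1, sparse rescue array 1 or dense KO array 2 or 3 (0.90 to 1.25). Myh9 was lost without sparse KO array 1 or 3, sparse rescue array 1, dense KO array 1 or 2 or dense rescue array 1 or 2 (-1.01 to -0.75). Csrp2 was lost with the day as a block (adjusted p = 0.0509) and without any one array other than sparse rescue array 3, dense KO array 1 and dense rescue array 3 (-0.96 to -0.71). With the day as a block Acta1 (1.16), Actg2 (1.00), Cald1 (-0.95) and Cfl1 (1.01) passed as well (adjusted p = 0.0258, 0.0275, 0.0275 and 0.0471). On second probes the interaction passed for Cald1 (-1.31, adjusted p = 0.0423) and Tpm3 (1.04, adjusted p = 0.0413), and Mylk was at -2.60. Some interactions that missed the test passed without 1 array. Without dense KO array 1 these were Tagln2 (1.11), Acta2 (1.01), Tagln (0.97), Smtn (0.89) and Tpm1 (0.85), and without dense rescue array 3 Actb (-1.46). Without sparse rescue array 2 Actg2 passed (1.34), without sparse rescue array 3 Cald1 (-1.32) and Cfl1 (1.203), and without dense rescue array 1 Cfl1 (1.24).

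**Figure D4:**
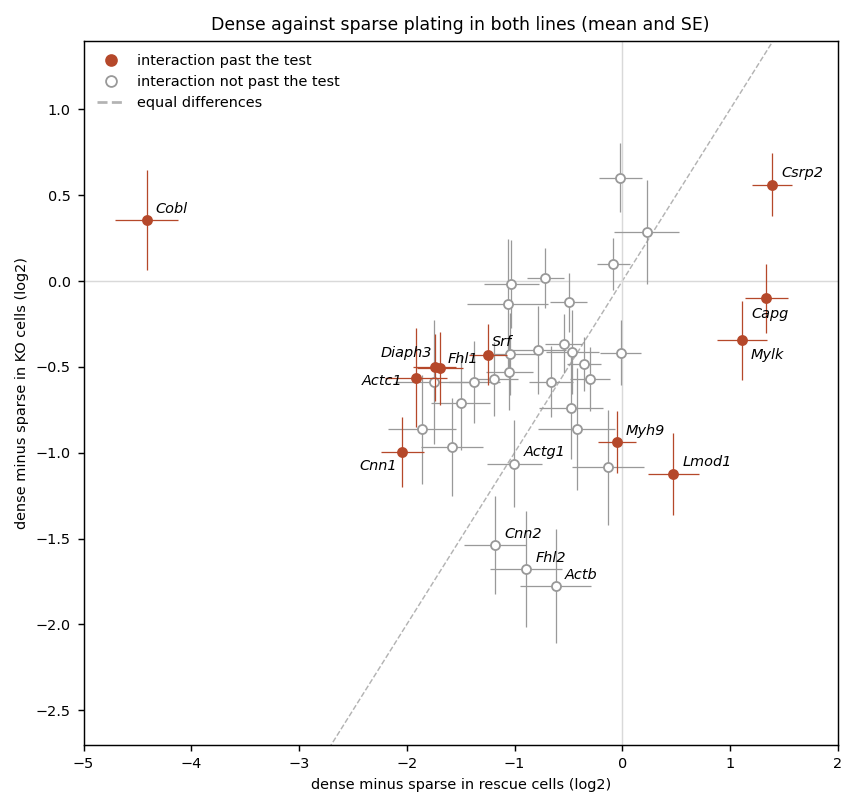
Dense minus sparse difference in KO cells (vertical axis, log2) against that in rescue cells (horizontal axis, log2) for the 40 measured genes, with SE bars and the line of equal differences; the 11 genes past the interaction test are filled. Cobl stands at -4.41 in rescue cells, a reading below background when dense, and 0.35 in KO cells; Mylk, Capg and Csrp2 lie to the right of 0 for rescue cells, and spike-in scaling would move the whole cloud up by about 3.08 and right by about 0.70.

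Calls are given here by promoter window, as a description beside 21% of all genes lower in dense rescue cells, 5.47% lower in dense KO cells and 61.6% called between dense lines. Of the 8 measured genes with a CArG box, 6 fell in dense rescue cells and 3 in dense KO cells (Actg1, Cnn2 and Fhl2), with medians of -1.21 and -0.57. Of the 26 measured genes with a window and no box, 15 fell and 2 rose in dense rescue cells and 3 fell in dense KO cells, with medians of -0.60 and -0.42. Between the dense lines 2 of the 8 were higher (Srf and Fhl1) and 3 lower (Cnn2, Myl6 and Fhl2) in KO cells, and between the sparse lines 1 was higher and 4 were lower. No test of one set of genes against the other was made.

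Other genes of the pathway were read from lists chosen by function. Among all genes, 61.6% were called between dense lines and 48.8% between sparse lines. The shares were 40% between densities in rescue cells (19% higher and 21% lower) and 10.9% in KO cells, and 20.7% in the interaction. Shares near these say nothing particular of a list. Of 36 further genes of actin assembly and turnover, 3 were higher and 20 lower in dense KO cells and 5 higher and 16 lower in sparse KO cells, with medians of -0.59 and -0.37. With density 4 rose and 5 fell in rescue cells and 3 fell in KO cells. Pfn2, the profilin most abundant in the nervous system, was 2.79-fold lower in dense and 9.45-fold lower in sparse KO cells, and fell in dense rescue cells (-1.24), with 0.52 in KO cells (adjusted p = 0.0590) and an interaction of 1.76 (adjusted p = 0.000426). Of 14 crosslinkers and stress fibre proteins, 3 were higher and 7 lower in dense KO and 2 higher and 8 lower in sparse KO cells. Pdlim1, a LIM protein of stress fibres, was 8.73-fold higher, and Lima1, which bundles filaments, 6.54-fold lower in dense KO than in dense rescue cells.

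Of 14 other myosin genes, 8 rose and 2 fell in dense rescue cells, with a median of 0.62, and none of the 14 passed in KO cells. Of these 14, 7 had a negative interaction and none a positive one. Myl1, a light chain of striated muscle, was detected on all 3 arrays of dense rescue cells and on no array of the other groups. It was at least 3.79-fold higher there than in sparse rescue cells. Dense rescue cells alone let it be tested, so the direction of its differences from that group was set by the filter. Myl1 is counted among the 8 that rose and the 7 with a negative interaction. Myo1d, a class I myosin, rose in dense rescue cells (1.44, adjusted p = 0.00257) and was higher in KO cells at both densities (1.08 and 2.38).

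Of 11 other SRF targets and cofactors, 3 were higher and 4 lower in dense KO and 1 higher and 4 lower in sparse KO cells, and with dense plating 1 rose and 2 fell in rescue cells while 4 fell in KO cells. Elk3, a partner of SRF that competes with MRTF for it, was 27.9-fold lower in dense and 14-fold lower in sparse KO cells (-4.80 and -3.81, SE 0.22). Des, desmin, the intermediate filament of muscle, was 2.3-fold higher in dense and 9.1-fold higher in sparse KO cells, and answered density in opposite directions, rising in dense rescue cells (1.27, adjusted p = 0.000568) and falling in dense KO cells (-0.71, adjusted p = 0.0489; interaction -1.99, adjusted p = 0.000961).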

How the data were processed

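Total RNA (100 ng per culture) was labelled with Cy3 and hybridised with spike-in RNA to Agilent one-colour arrays, per the labels' protocols. The scanner files hold spot intensity from Feature Extraction 10.5.1.1 on a linear scale, background-subtracted on each array and left unscaled across arrays, per the file headers. The deposited value table holds log2 values whose normalisation is not given in the sources used here, and it was used only as an alternative, with all its columns and, chosen after seeing the data, without those of day 3.

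Flagged spots (79 to 265 per array) were set to missing, no spot was saturated, and log2 processed intensity minus the array's 75th percentile was taken. Probes were named by RefSeq transcript through the supplied symbol list (GRCm38.p6): 24375 of 41174 had a gene. A probe was kept where some group had it well above background on each of its 3 arrays, and the brightest stood for its gene, which left 12435 genes; 17 listed genes had several kept probes, and none had probes called in opposite directions. Probe sequences were not at hand, so signal from near-identical relatives cannot be told apart.

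The tests used limma 3.58.1 (R 4.3.3) with a mean for each of 4 groups, 8 residual degrees of freedom and 3.58 from the prior. For each of the 5 comparisons p-values were adjusted across the whole table by Benjamini-Hochberg, with a threshold of 0.05. With 3 against 3 cultures a permutation test cannot go below 0.1. Errors of differences are SE. The fit was tested on simulated data. The days came from the labels as a shared experimental day, so they pair the cultures; 11 of 18 same-day pairs of arrays had deviations correlated above 0.1 (-0.037 to 0.295). The 2 densities of a line and day shared 1 of 5 slides. For the normexp alternative (offset 50) the median spot signal was used, since the files hold no mean signal. The 41 genes, the lists and the tests were chosen with earlier results of these data known, so no count is independent support. The results of 1 further gene list are not reported here. All listed genes are named; of each list, the called gene with the largest change per direction was eligible. Cobl's bounds compare means of log2 values, with the dim side set to the higher of its own signal and the lowest one well above background on that array.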

Additional observations from a re-analysis of the deposited data

Results flagged for a closer look

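For 11 of the listed genes the response to density differed between the lines by the interaction test, each value being the dense minus sparse difference in KO cells minus that in rescue cells (log2). A response deeper in rescue cells gave positive values for Cobl (4.77), Actc1 (1.35), Diaph3 (1.24), Fhl1 (1.18), Cnn1 (1.04) and Srf (0.82). Negative values came from Lmod1 (-1.60), Mylk (-1.45), Capg (-1.44), Myh9 (-0.89) and Csrp2 (-0.83). The value of Cobl depends on readings below background in dense rescue cells and is no bound. No group had enough arrays to look for single outlying cultures.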

How the results depend on the processing

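Counts below are of the 40 listed genes unless all 12435 genes are named, and comparisons run in the order dense lines, sparse lines, KO density, rescue density and interaction (main counts 25, 23, 7, 26 and 11; all genes 7666, 6067, 1356, 4977 and 2579). Leaving out 1 array at a time gave 22 to 25, 20 to 23, 6 to 10, 21 to 27 and 6 to 14, and for all genes 7021 to 7830, 5325 to 6237, 514 to 1598, 4242 to 5156 and 1967 to 2572; the lowest KO density counts came without dense KO array 2 (514), sparse KO array 1 (601), sparse KO array 3 (671) and dense KO array 1 (879). With the day as a replicate block the counts were 25, 26, 9, 27 and 14; the changed calls are given with each gene above, and the block changed no other call of a listed gene. Normexp background correction gave 1 for KO density, 16 for rescue density and 0 for the interaction (14 at an unadjusted p under 0.05), and for all genes 5045, 3393, 47, 2345 and 592. The deposited table as labelled gave 0 in every comparison (0, 0, 6, 4 and 0 at an unadjusted p under 0.05) and for all genes 0, 0, 1, 0 and 0 (58, 84, 963, 903 and 32 unadjusted), with Tagln2 at -0.19 between dense lines and Srf at -0.31 in the interaction; without its day 3 columns it gave 22, 19, 5, 17 and 4, and for all genes 6854, 5126, 813, 3686 and 1422. KO density counts became 15 with the mean of a gene's probes, 13 with the slide as a random block and 20 with array weights (3291 of all genes), and the interaction 7 with no filter on dim probes. Quantile scaling gave 25, 24, 6, 21 and 9, and the slide as a block 23, 19, 9, 26 and 13. Scaling on the array median split calls 12 higher and 13 lower, 4 and 18, 2 and 4, 3 and 19, and 7 and 2. Of all genes called under it, 49.4%, 30.6%, 80.9%, 48.8% and 70.9% were higher. Spike-in scaling gave 40 for KO density, 5 for rescue density and 36 for the interaction, and for all genes 9647 between sparse lines, 12379 and 10865. It turned the sign of 8, 9, 34, 14 and 15 of the 40 differences. Among differences called under at least 1 of these scalings it reversed Myl6 (0.16) and Tmsb4x (0.028) between dense lines; Actb (-0.61), Tagln2 (-1.09), Myh10 (-0.78), Tpm3 (-1.40), Tpm4 (-0.49), Flnc (-1.30), Mrtfb (-0.87) and Smtn (-0.88) between sparse lines; and Tpm3 (0.032), Mrtfb (0.15) and Tmsb4x (0.20) in rescue density. In KO density it reversed 34 genes, Acta1 (2.50), Acta2 (2.49), Actb (1.31), Actc1 (2.52), Actg1 (2.02), Actg2 (2.22), Tagln (2.12), Tagln2 (2.37), Cnn1 (2.09), Cnn2 (1.54), Myl6 (2.67), Mylk (2.74), Myh9 (2.14), Myh11 (2.22), Tpm2 (2.60), Tpm3 (2.50), Tpm4 (2.55), Cald1 (2.00), Flna (2.35), Flnc (2.66), Srf (2.65), Mrtfa (2.67), Mrtfb (2.72), Csrp1 (2.68), Fhl1 (2.57), Fhl2 (1.41), Lmod1 (1.96), Smtn (2.51), Cfl1 (3.07), Pfn1 (2.95), Tmsb4x (2.96), Diaph1 (2.51), Diaph3 (2.58) and Capg (2.98). In the interaction it reversed Actg1 (2.33), Cnn2 (2.03), Mylk (0.93), Myh9 (1.496), Myh11 (1.95), Tpm2 (2.26), Cald1 (1.43), Flna (2.12), Mrtfa (1.98), Csrp2 (1.56), Fhl2 (1.60), Lmod1 (0.79), Diaph1 (2.12) and Capg (0.95). Leaving spike-in scaling and the deposited table aside, 20, 14, 1, 15 and 0 calls were kept under every other setting run for them. These were at most 25, as not every setting covered each comparison or gene. The 1 call kept in KO density was that of Fhl2. The causes of these changes were not tested. With 3 cultures a group, 1 clone of rescue cells and 1 slide shared by the lines, small differences and differences confounded with slide or medium cannot be resolved, and the brightest probe stands for each gene.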
